A study of Mus musculus with 2 samples.

Results

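The miR-7 family and Mir671 were measured in mouse hippocampus at 10 days of age by microRNA sequencing. The family has 3 genes in the mouse, Mir7-1, Mir7-2 and Mir7b. With Mir671 they form a set of 4 genes, chosen by name as the microRNAs that interact with the brain circular RNA Cdr1as, out of 2202 microRNA genes in the files. All 4 were matched through GENCODE M21, and all 4 passed the minimum of 10 counts over both libraries. The tissue, labelled as layer of hippocampus, came from male B6CASTF1/J mice, F1 animals of a cross between the strains C57BL/6J and CAST/EiJ, and total RNA was used. There was 1 group with 2 biological replicates, each labelled with 3 males, and no treatment or control group. The labels list different animals for the replicates but the same donor identifier, so the spread between the libraries may in part be technical.

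MicroRNAs are cut from hairpin precursors and pair with target RNAs mainly through their seed, bases 2 to 8 of the mature strand. miR-7 is a conserved microRNA of neuronal and neuroendocrine cells. Cdr1as is a circular RNA of neurons that carries many sites for miR-7 and a site for miR-671, through which miR-671 is known to direct its cleavage. Cyrano, a long noncoding RNA, is known to promote the decay of miR-7 through an extensively paired site. The labels give a size range under 30 for the libraries, so neither Cdr1as nor Cyrano was measured. What is said of them below rests on reference sequence.

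The mature sequences are shown because they set both what the counts can separate and what the microRNAs can pair with. They are RefSeq sequences (GRCm38.p6), printed 5′ to 3′ with the seed in capitals.
miR-7a-5p (from Mir7-1 and from Mir7-2): uGGAAGACuagugauuuuguugu
miR-7b-5p (from Mir7b): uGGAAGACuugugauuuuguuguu
miR-671-5p (from Mir671): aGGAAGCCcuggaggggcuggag
miR-7a-1-3p (from Mir7-1): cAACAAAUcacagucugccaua
miR-7a-2-3p (from Mir7-2): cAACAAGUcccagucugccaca
miR-7b-3p (from Mir7b): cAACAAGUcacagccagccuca
miR-671-3p (from Mir671): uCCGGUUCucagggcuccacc

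Mir7-1 and Mir7-2 give the same 5′ product, miR-7a-5p. Over its 23 bases miR-7b-5p differs from it by 1 substitution, A10U, counted from 1 at the 5′ end of miR-7a-5p, and the seed is shared. The seed of miR-671-5p differs from that of miR-7 by 1 substitution, A7C, counted the same way. Outside these genes, 0 other mature sequences in the RefSeq table carried the seed of miR-7a-5p, and 0 carried that of miR-671-5p. The 3′ arms of Mir7-2 and Mir7b share a seed, while that of Mir7-1 differs from the 3′ arm of Mir7-2 by A7G, A10C and U21C.

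The Mir7-1 and Mir7-2 hairpins are shown because the files total reads that fit several places in the genome on a line of their own, apart from the genes. Capitals mark the longest run the hairpins share, which is 24 bases long and covers the whole of miR-7a-5p.
Mir7-1: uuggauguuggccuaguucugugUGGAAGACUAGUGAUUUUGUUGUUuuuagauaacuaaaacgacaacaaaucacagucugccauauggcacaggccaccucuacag
Mir7-2: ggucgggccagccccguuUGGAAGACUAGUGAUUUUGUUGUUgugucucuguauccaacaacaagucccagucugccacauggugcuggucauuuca
A read of exactly the 23 bases of miR-7a-5p fits both hairpins. The counts of Mir7-1 and Mir7-2 should therefore come from reads that reach past the shared run or that lie elsewhere in the hairpin, and both levels can lie below the true level. The longest run that Mir7b shared with either of them was 14 bases, and the longest run that Mir671 shared with any microRNA gene was 12 bases. How many mismatches were allowed in the alignment is not given in the sources used here, so a part of the separation of miR-7a from miR-7b rests on that setting.

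The 4 genes lie on different chromosomes. Positions are those of GENCODE M21 on GRCm38, the assembly also named mm10. Mir7-1 lies at chr13:58392779-58392886 on the minus strand, in an intron of Hnrnpk, which encodes an RNA-binding protein. Mir7-2 lies at chr7:78888277-78888373 on the plus strand with no host gene there, and the nearest gene on that strand is Aen, 7480 bases away. Mir7b lies at chr17:56242988-56243098 on the plus strand, also outside any gene, 182 bases from the noncoding gene AC026385.1. Mir671 lies at chr5:24592114-24592211 on the plus strand, inside the coding sequence of exon 4 of Chpf2, a gene of chondroitin synthesis, and opposite to Smarcd3 on the other strand. All 4 genes had 0 counts on the opposite strand in both libraries, where a count of 0 allows up to 3 counts.

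Counts on genes came to 4815761 for replicate 1 and 3495401 for replicate 2. Levels are given as CPM, counts per 1000000 counts on genes, and intervals are exact Clopper-Pearson intervals at the 95% level, which cover counting error only. A further 37.7% of all reads in replicate 1 and 39.8% in replicate 2 fitted several places and are outside these levels. The 5 neuron markers summed to 10406 and 9949 CPM, of which Mir138-1 and Mir128-1 made up nearly all, since the Mir124a loci, which are copies of each other, had at most 13 counts per library. The 2 markers of red blood cells, Mir451a and Mir144, summed to 1198 CPM in replicate 1 and 48.1 CPM in replicate 2. Those of choroid plexus, Mir204 and Mir448, summed to 452 and 1496 CPM, and those of striated muscle to 102 and 32.6 CPM. Of the latter, Mir133b, which shares at least 20 consecutive bases with 2 other genes, had 0 counts. The endothelium marker Mir126a had 14888 and 9301 CPM, and the 2 oligodendrocyte markers, Mir219a-2 and Mir338, summed to 998 and 1721 CPM. Vascular smooth muscle markers, Mir143 and Mir145a, summed to 3962 and 4390 CPM, and myeloid markers, Mir142 and Mir223, to 44.4 and 46.3 CPM. Markers of neuroendocrine and pituitary cells, Mir375 and Mir200b, summed to 511 and 647 CPM, and the liver marker Mir122 had 39.5 and 31.5 CPM. The part of these tissues in the members' differences between libraries was not tested.

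Together the 4 genes took 0.364% of gene counts in replicate 1 (interval 0.358 to 0.369%) and 0.413% in replicate 2 (0.407 to 0.420%), a mean of 0.389% ± 0.0351 (SD, n = 2). The miR-7 genes alone took 0.253% and 0.269%, a mean of 0.261% ± 0.0114 (SD, n = 2). The intervals of the family's share, 0.248 to 0.257% and 0.263 to 0.274%, did not overlap. Most of these counts, which should lack reads that fit both Mir7-1 and Mir7-2, came from Mir7b in each library.

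Mir7b had 9366 counts in replicate 1 and 7765 in replicate 2, or 1945 CPM (1906 to 1985) and 2221 CPM (2172 to 2271). Its mean was 2083 ± 196 CPM (SD, n = 2), rank 80 among the 797 genes with any count. It was the highest of the 4 genes in both libraries. Mir7b made up 77.0% of the summed miR-7 counts in replicate 1 and 82.7% in replicate 2 (intervals 76.3 to 77.8% and 81.9 to 83.5%). Reads of miR-7a-5p that fit both Mir7-1 and Mir7-2 should be missing from this sum. The share of Mir7b and its lead over Mir7-2 may therefore be overstated, and these values do not rank miR-7b against miR-7a.

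Mir7-2 had 2463 and 1378 counts, or 511 CPM (491 to 532) in replicate 1 and 394 CPM (374 to 416) in replicate 2. Its mean was 453 ± 82.9 CPM (SD, n = 2), at rank 146. It took 20.3% and 14.7% of the summed miR-7 counts, and the intervals of these shares did not overlap. Mir7-2 was the only member that was lower in replicate 2 under library totals, TMM sizes and DESeq2 factors alike.

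Mir7-1, the copy within Hnrnpk, had 331 and 246 counts, or 68.7 CPM (61.5 to 76.6) and 70.4 CPM (61.9 to 79.7). Its mean was 69.6 ± 1.16 CPM (SD, n = 2), at rank 232. It was the lowest of the 4 genes in both libraries, with 2.72% and 2.62% of the summed miR-7 counts. The level of Mir7-2 was 7.44 times that of Mir7-1 in replicate 1 (6.63 to 8.37) and 5.60 times in replicate 2 (4.89 to 6.44). Reads of miR-7a-5p fit both hairpins and no reads were inspected here, so these ratios may not reflect the output of miR-7a from each copy.

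Mir671 had 5355 and 5061 counts, or 1112 CPM (1082 to 1142) in replicate 1 and 1448 CPM (1408 to 1488) in replicate 2. Its mean was 1279.9 ± 238 CPM (SD, n = 2), at rank 99. The level lay below that of Mir7b and above that of Mir7-2 in both libraries. The order Mir7b, Mir671, Mir7-2, Mir7-1 was the same in each library, and for each pair of neighbours in it the values of the libraries did not overlap. Levels of different microRNAs compare read counts, and equal capture of them was not analysed. The places of Mir7-2 and Mir7-1 in this order should lack the reads that fit both.

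**Figure D1:**
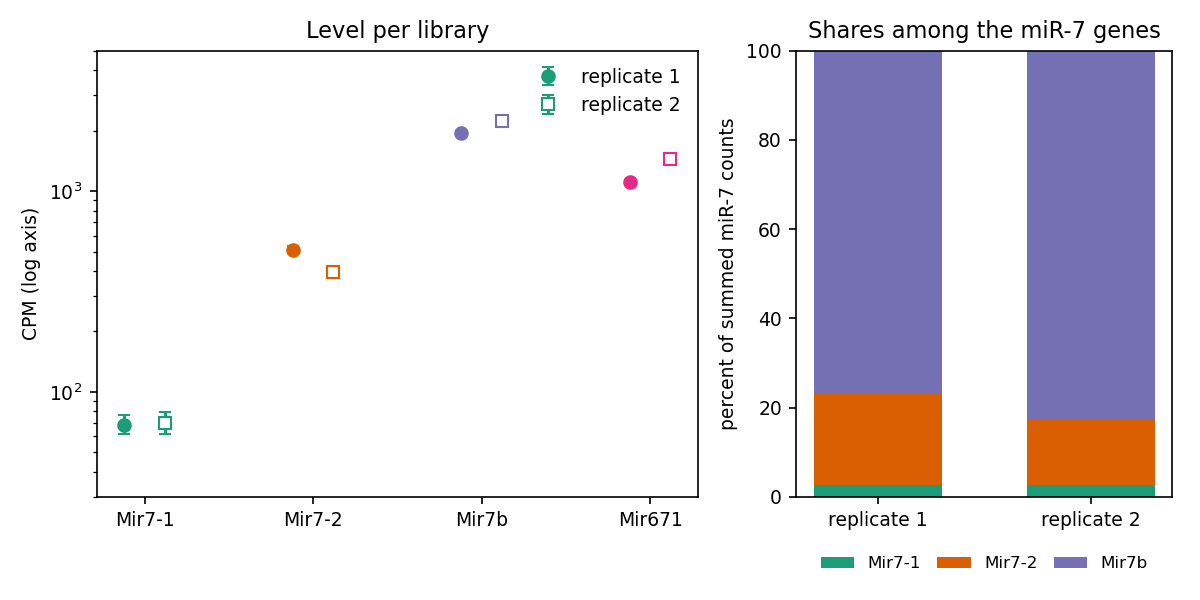
Left, CPM of the 4 genes on a log axis, with filled circles for replicate 1, open squares for replicate 2 and bars for the exact 95% counting interval, which are hidden by the symbols where narrow. Right, share of each miR-7 gene in the summed miR-7 counts of each library, where Mir7b made up 77.0% and 82.7%. Reads that fit both Mir7-1 and Mir7-2 should be missing, so the share of Mir7b may be overstated.

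Ratios within a library do not depend on the scaling between libraries. Mir671 had 0.440 counts for each count on the miR-7 genes in replicate 1 (0.426 to 0.455) and 0.539 in replicate 2 (0.521 to 0.558). Mir7b had 1.75 times the counts of Mir671 in replicate 1 (1.69 to 1.81) and 1.53 times in replicate 2 (1.48 to 1.59). The ratio of Mir7b to Mir7-2 was 3.80 (3.64 to 3.98) in replicate 1 and 5.63 (5.32 to 5.97) in replicate 2. The ratio of Mir671 to Mir7-2 was 2.17 (2.07 to 2.28) and 3.67 (3.46 to 3.90). None of these pairs of intervals overlapped, so each ratio differed between the libraries by more than counting error. Reads that fit both Mir7-1 and Mir7-2 should be missing here. The ratios to Mir7-2 and to the miR-7 genes may therefore be too high. An exact sign-flip test over 2 libraries cannot go below a two-sided p of 0.5. With 1 group, these are differences between libraries and not between conditions.

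The libraries were compared gene by gene with an exact two-sided binomial test (SciPy) given the library totals, with Benjamini-Hochberg adjustment over 540 genes with at least 10 counts. A gene was said to differ where the adjusted p was below 0.05 and the log2 ratio was 1 or more in size. By this rule 0 of the 4 members differed, against 18.7% of all tested genes. The count of members was also 0 under TMM sizes and under DESeq2 size factors. By the adjusted p alone, 3 of the 4 members differed, against 55.7% of tested genes. Of these, 2 were higher in replicate 2, against 32.4% of tested genes, and 1 was lower, against 23.3%. An unadjusted p below 0.05 was found for 3 members and for 59.4% of tested genes. The test asks only whether counting error accounts for a difference, and at these depths it passes small differences.

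Mir671 had the largest ratio of replicate 2 over replicate 1, a log2 ratio of 0.38 or 1.30-fold (adjusted p = 2.1e-40 by the exact binomial test). Mir7b had a log2 ratio of 0.19 (adjusted p = 2.0e-17), and Mir7-2 had -0.38 (adjusted p = 2.0e-14), both by the same exact test. Mir7-1 had a log2 ratio of 0.035 with an adjusted p of 0.865 by the exact test, and its sign turned under TMM (-0.035) and under DESeq2 (-0.14). The scaling also moved the centre of all tested genes, whose median log2 ratio was 0.17 under library totals, 0.10 under TMM and 0.00094 under DESeq2. With DESeq2 factors the log2 ratios of Mir671, Mir7b and Mir7-2 were 0.21, 0.02 and -0.55, and the adjusted p of Mir7b by the exact test rose to 0.465.

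The members' median absolute log2 ratio was 0.28, and that of all 540 tested genes was 0.54. The coefficient of variation of CPM between the libraries was 1.67% for Mir7-1, 18.3% for Mir7-2, 9.39% for Mir7b and 18.6% for Mir671 (n = 2 for each). Among the 64 tested genes within 2-fold of the mean level of Mir7b, 17 had an absolute log2 ratio as small as its own or smaller. Among the 62 around Mir7-1 there were 2, among the 61 around Mir7-2 there were 19, and among the 64 around Mir671 there were 27. The median absolute log2 ratio of the genes around each was 0.35 for Mir7b, 0.47 for Mir7-1, 0.55 for Mir7-2 and 0.56 for Mir671. Under library totals each member lay below the median of the genes around it, and for Mir7-2, Mir7b and Mir671 many of those genes were as close between the libraries. With DESeq2 factors the log2 ratio was -0.55 for Mir7-2 and -0.14 for Mir7-1, and the genes around them were not compared under that scaling. The counting intervals of Mir7-1, 61.5 to 76.6 and 61.9 to 79.7 CPM, were wider than its difference between the libraries.

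**Figure D2:**
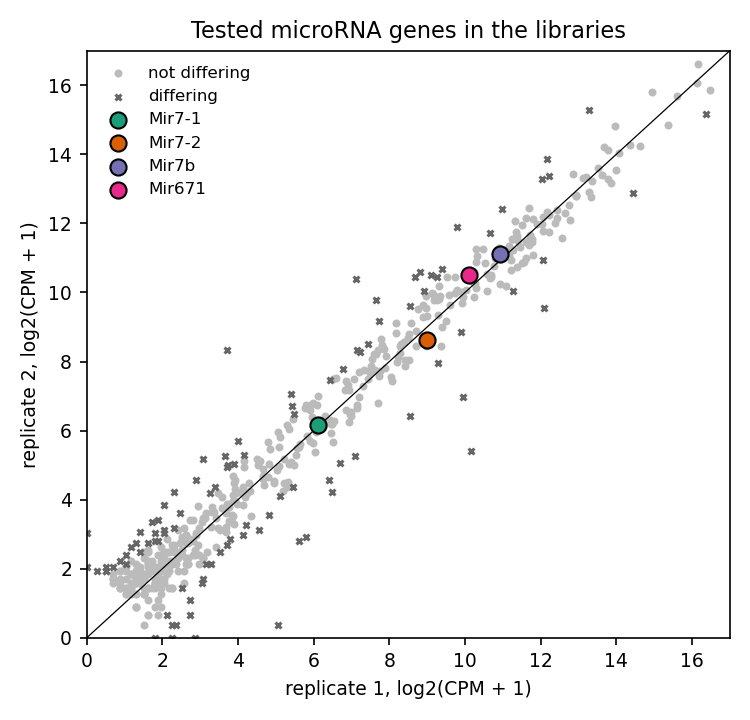
Each point is 1 of the 540 tested microRNA genes, with log2(CPM + 1) in replicate 1 on the x axis and in replicate 2 on the y axis, and the line marks equal levels. Crosses mark genes that differed by the exact binomial test with an log2 ratio of 1 or more in size, and the 4 large points, the members, all lie among genes that did not.

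The genes whose levels in the 2 libraries were most like each member were named by distance in log2(CPM + 1). They were Mirlet7f-1 and Mir503 for Mir7-1 (distances 0.09 and 0.10), and Mir1981 and Mir467e for Mir7-2 (0.18 and 0.35). They were Mir501 and Mir125b-1 for Mir7b (0.17 and 0.18), and Mir668 and Mir540 for Mir671 (0.15 and 0.15). The mirtron Mir1981, nearest to Mir7-2, had 502 and 349 CPM. Over only 2 libraries this describes levels.

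Against a list of 20 microRNAs enriched in neurons or brain, all members lay within the range of mean levels. That range is wide and starts at 0.286 CPM for Mir124a-2, a gene with copies, so lying within it says little. Of the 20, 7 had a higher mean level than Mir7b and 8 a higher one than Mir671, led by Mir139 at 44583 CPM, and 14 of the 20 share at least 20 consecutive bases with another gene. Of the 18 tested, Mir132, a microRNA induced by neuronal activity, was higher in replicate 2 and Mir153 was lower, both named here after their values were seen. These are 2 of 18 genes, beside 18.7% of all tested genes. The median log2 ratio of the list was 0.23, beside 0.17 for all tested genes. In a list of 6 microRNAs of neuroendocrine and epithelial cells, all 6 lay below Mir671 in mean level. The list was not below every member, since its top mean of 574 CPM exceeded Mir7-2 (453 CPM) and Mir7-1 (69.6 CPM). Its highest gene was Mir375, a microRNA of pancreatic islets and pituitary, at 507 and 642 CPM, and its lowest was Mir141, with 2 counts and 0 counts. Of its 5 tested genes, Mir200c, named after its values were seen, was lower in replicate 2 and 0 were higher, again beside 18.7% of all tested genes. The median log2 ratio of this list was 0.22.

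Mir7-1 and Mir7-2 were set beside other genes with copies. Of all 2202 genes, 540 reached 10 counts over both libraries. Of 123 genes whose longest shared run was 22 to 26 bases, Mir7-1 and Mir7-2 included, 47 reached 10 counts. Of the 123, 28 had a higher mean level than Mir7-1, and 15 a higher one than Mir7-2. Of 50 loci in 24 listed families that make 1 mature sequence from several loci, 39 reached 10 counts, 24 lay above Mir7-1 and 13 above Mir7-2.

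The Cdr1as exon shows how the members can meet on 1 RNA. GENCODE M21 holds it as an exon of the noncoding gene C230004F18Rik at chrX:61183248-61186174 on the plus strand, 2927 bases long. The match to bases 2 to 8 of miR-7, GTCTTCC, occurred 123 times on the Cdr1as strand and 0 times on the other strand, or 42.0 times per 1000 bases. In windows of the same length from 12721 other genes, taken as the first 2927 bases of each gene's longest transcript, 24.2% held at least 1 match. The highest number in any window was 4. Matches followed by A, GTCTTCCA, which overlap with the former, numbered 34 in Cdr1as and were found in 8.01% of windows. The shorter match to bases 2 to 7, TCTTCC, which is contained in both, numbered 139 and was found in 74.7% of windows.

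Most matches were regularly spaced. Of the 122 distances between neighbouring matches, 86 were 18 bases, the median was 18, and the range was 17 to 109. The Cdr1 coding gene, which lies on the other strand at chrX:61184005-61185558, overlapped 79 of the matches, and 44 lay outside it. For miR-671-5p the match to bases 2 to 8, GGCTTCC, occurred 1 time in Cdr1as, and 28.9% of windows held at least 1.

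**Figure D3:**
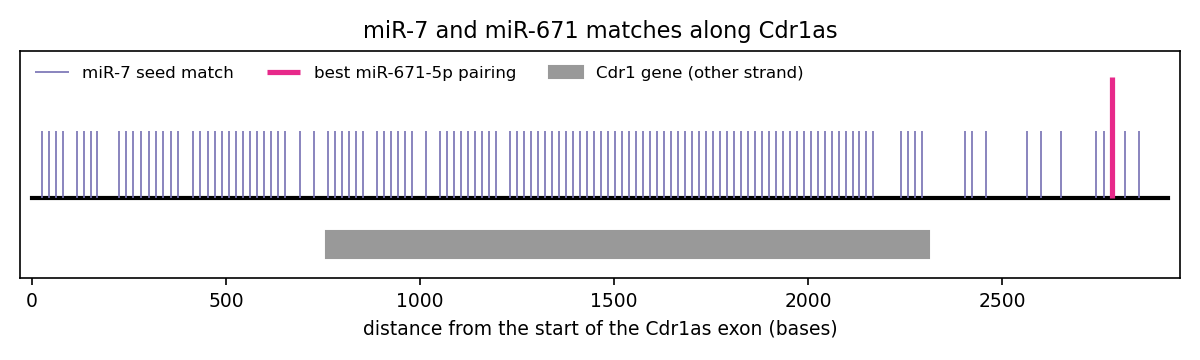
The Cdr1as exon drawn to scale, with distance from its start in bases on the x axis, a short line for each of the 123 miR-7 seed matches and a tall line for the start of the best pairing with miR-671-5p. The grey bar is the Cdr1 coding gene on the other strand, and the miR-671 pairing lies near the exon's end, past that gene.

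The most frequent form of the miR-7 site and the best pairings are shown because they tell the family's products apart. Sites are DNA letters of the transcript strand (GRCm38), 5′ to 3′, and capitals mark bases paired with the named microRNA by Watson-Crick pairs.
Cdr1as, first site of the most frequent form, with miR-7a-5p (chrX:61183571-61183593): tCcAgAAAAatcCaAGTCTTCCA
The same site with miR-7b-5p over its first 23 bases: tCcAgAAAAatcCAAGTCTTCCA
Cdr1as with miR-671-5p (chrX:61186028-61186051): CtTCCAGCatCTCCAGGGCTTCCa
Cyrano with miR-7a-5p (chr2:119602137-119602161): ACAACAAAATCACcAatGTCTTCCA

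Over the first 23 bases miR-7a-5p and miR-7b-5p differ only at position 10, so their pairing with Cdr1as can differ only there. Of the 123 sites, 102 had the base that pairs with miR-7b-5p at that position and 2 had the base that pairs with miR-7a-5p, while 15 had G. Over the first 23 bases the median number of paired bases was 14 for miR-7b-5p (range 9 to 17) and 13 for miR-7a-5p (8 to 16). The Cdr1as site printed for both stood at the top of each range, with 17 and 16 paired bases. Its seed match is followed by A, as at 34 of the 123 sites. Beyond the seed, both paired at 85.4% of sites at position 15 and at 87.8% at position 16, but at 3.25%, 4.07% and 0.813% at positions 12, 13 and 14. The core of the most frequent form, with the seed match in capitals, was atccaaGTCTTCC and occurred at 42 of the 123 sites. The sites share this repeated sequence, so they are not independent of each other.

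**Figure D4:**
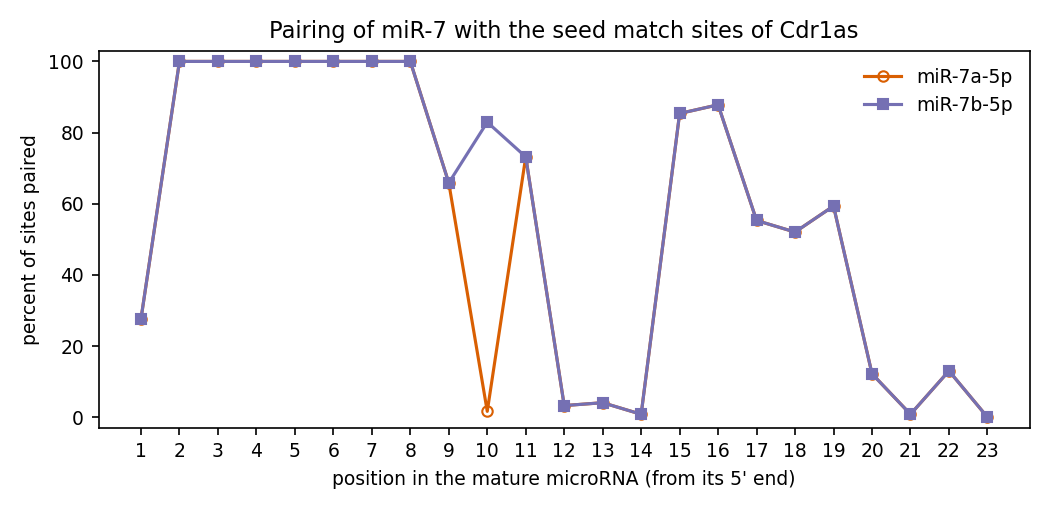
Percent of the 123 Cdr1as seed match sites at which each base of miR-7a-5p (open circles) and miR-7b-5p (filled squares) would form a Watson-Crick pair, by position from the 5′ end. Positions 2 to 8 are at 100% because the sites were chosen by them. The lines can part only at position 10, where the sequences differ, and there miR-7a-5p stood at 1.63% and miR-7b-5p at 82.9%.

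Pairing was more extensive for miR-671-5p in Cdr1as and for miR-7 in Cyrano. With up to 6 unpaired target bases allowed between 2 paired stretches, miR-671-5p paired at 20 of its 23 bases in Cdr1as, with positions 1, 15 and 16 unpaired. A pairing as long was found in 26 of the 12721 windows, whose median was 16. Under the same search, miR-7a-5p paired at 22 of 23 bases in the Cyrano transcript and miR-7b-5p at 23 of 24. In both searches 0 windows reached that number, with highest values of 20 and 21. The first 2927 bases of Cyrano are among the windows, but its sites start later, at bases 2935 and 2934. Sites past base 2927 of any other transcript were likewise not searched. The Cyrano transcript was searched over all its 8300 bases and each window over 2927, so the lengths were not matched. In Cdr1as the best pairing under this search was 17 of 23 bases for miR-7a-5p and 18 of 24 for miR-7b-5p, which 2710 and 1815 windows reached or passed. A match is a description of sequence, and binding was not measured here.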

How the data were processed

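The authors deposited raw read counts per microRNA gene, 1 file per library, made on mm10 with GENCODE M21 per the notes deposited with the counts. No source used here gives the aligner, counter or trimming. A file has 3 count columns (unstranded and 1 per strand) and 4 lines with totals of uncounted reads, which did not enter library sizes. Sense counts were used.

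CPM, exact intervals and the exact binomial test were computed in Python 3.11.15 with numpy 2.4.6, pandas 2.3.3 and SciPy 1.17.1. For log2 ratios 0.5 counts were added, and replicate 2 was divided by replicate 1. TMM sizes came from edgeR 4.0.16 and size factors from DESeq2 1.42.0 in R 4.3.3. edgeR's quasi-likelihood test has no residual degrees of freedom here. Sequences came from RefSeq (all 4 genes matched) and from GENCODE M21 transcripts. A genome sequence was not used here. Effects of CAST/EiJ alleles on alignment were not analysed.

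Named genes were the members, the 2 tested genes nearest to each in log2(CPM + 1), and the most and least abundant genes of the lists. Members and lists were chosen with earlier results of these data known. The comparison with genes of like level or like shared run, the windows of other genes, and the pairing by position and with unpaired bases were added after the files were seen. On simulated data for this comparison, with counting error only and 541 genes tested, the call was made for 86 of 98 genes changed 4-fold, 2 of 99 changed 1.5-fold and 1 of 344 unchanged. Alternatives covered scaling, filters, the ratio minimum, the count added, denominators, strand, shared run length, kind of seed match and each replicate left out.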

Additional observations from a re-analysis of the deposited data

How the results depend on the processing

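The order of the members' mean levels was kept under unstranded counts, TMM sizes, DESeq2 factors, all reads as denominator and either replicate alone. This holds by construction and does not test the order. The order was the same in each library, and these settings divide all genes of a library by the same number. Unstranded counts add no reads to the members, which had 0 counts on the opposite strand. With reads that fit several places in the denominator the share of the 4 genes was 0.189%, and with all reads it was 0.142%. With all reads in the denominator the levels of Mir7-1, Mir7-2, Mir7b and Mir671 were 25.6, 168, 763 and 467 reads per 1000000, by construction of the larger denominator. With unstranded counts the levels of Mir7-1, Mir7-2, Mir7b and Mir671 were 74.0, 481, 2215 and 1361 CPM. All 4 rose because the unstranded totals, 4534817 and 3283430, were smaller than the sense totals. The log2 ratio of Mir7-1 turned to -0.035 with TMM sizes and -0.14 with DESeq2 factors. Without the ratio minimum, 301 genes and 3 members differed, and with at least 50 counts, where 359 genes were tested, 67 genes differed against 101. Seed matches in Cdr1as followed by A numbered 34 against 123. Leaving out a replicate gave shares of 0.364% to 0.413% for the 4 genes and ratios of Mir671 to the miR-7 genes of 0.440 to 0.539. Including these, 37 alternative values of the main results moved by less than the SD of the replicates or, for counts, by no more than 1.5 times. The other 11 moved further. Leaving out 1 of 2 libraries always moves a mean by less than their SD, so those values are among the 37 by construction. No paired analysis was possible because the labels give 1 group. The depth, a floor of 0.623 and 0.858 CPM, lay far below the members' levels. Reads that fit both Mir7-1 and Mir7-2 may lower the levels of these genes, and their number per gene was not analysed here.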
